A study of Mus musculus with 19 samples.

Results

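The subject here is a set of 5 genes whose products restrain mTORC1, the growth-promoting protein kinase complex built around mTOR: Ddit4, Sesn1, Sesn2, Sesn3 and Deptor. They were chosen by name, as the rows of the deposited gene count table whose Ensembl identifiers carry those symbols, and all 5 were found among the 55416 gene rows. RNA from mouse liver was sequenced in 19 libraries that the labels place in 5 groups. All animals were C57BL/6. The normal group is wild-type (WT) mice without any injection (4 libraries). WT mice and IL-6 -/- mice, which lack the cytokine interleukin-6, received either vehicle or furosemide, a loop diuretic, in 2 intraperitoneal injections 3 h apart, and furosemide was given at 4 mg per injection. Livers were collected at 6 h. The furosemide groups are labelled PRA, for pre-renal azotemia, a build-up of nitrogenous waste in blood when the kidneys are poorly perfused. Injected WT mice gave 4 libraries for vehicle and 4 for PRA, and injected IL-6 -/- mice gave 4 for vehicle and 3 for PRA. Neither age nor sex is given in the sources used here, nor is it stated that the replicates of a group are separate animals. Every p-value here therefore refers to the scatter among samples, part or all of which may be technical.

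The kinase complex mTORC1 drives protein, lipid and nucleotide synthesis and holds back autophagy when amino acids, energy and growth factors are plentiful. Growth factor signals reach it by relieving the TSC1-TSC2 complex, which otherwise keeps the small GTPase Rheb inactive, and amino acids reach it through the Rag GTPases on the lysosome. Stress genes act at each of these points. Ddit4 (also called REDD1) acts through the TSC complex, the sestrins bind the GATOR2 complex that controls the Rag GTPases, and Deptor binds mTOR itself. In liver, mTORC1 activity follows feeding and fasting.

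Total gene counts ran from 32073865 to 74041441 per library, and the WT PRA libraries were the shallowest group, at 32073865 to 52074951. Every one of the 5 genes passed the filter on low counts, with 260 to 9213 counts in a library. The 6 hepatocyte markers summed to between 71800 and 144000 CPM (a gene's counts as a share of the TMM-scaled library total) in every library, as the liver label requires, and markers of skeletal muscle to at most 0.431 CPM. Il6 itself was at 0 to 4 counts in the WT libraries and at 1 to 16 counts in those labelled IL-6 knockout, so it cannot check the genotype labels. Below, knockout stands for the libraries labelled IL-6 -/-.

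RefSeq promoter windows of 300 bases (250 before the transcription start and 50 from it on, GRCm38.p6) were available for 4 of the 5 genes. Those of Ddit4 and Sesn2, the 2 genes that rose under PRA in both genotypes, are shown so that the promoters of the responding genes can be read beside their values. The Ddit4 window lies at chr10:59951721-59952020 on the minus strand and the Sesn2 window at chr4:132510407-132510706 on the minus strand. Both are written 5' to 3', and the capitals mark the letters that matched one of 6 motifs searched on both strands.
Ddit4: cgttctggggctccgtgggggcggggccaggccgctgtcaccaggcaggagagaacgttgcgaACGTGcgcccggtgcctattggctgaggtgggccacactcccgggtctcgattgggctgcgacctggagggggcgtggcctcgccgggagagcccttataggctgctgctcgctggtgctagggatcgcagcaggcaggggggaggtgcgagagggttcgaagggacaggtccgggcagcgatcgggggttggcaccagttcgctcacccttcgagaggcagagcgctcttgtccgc
Sesn2: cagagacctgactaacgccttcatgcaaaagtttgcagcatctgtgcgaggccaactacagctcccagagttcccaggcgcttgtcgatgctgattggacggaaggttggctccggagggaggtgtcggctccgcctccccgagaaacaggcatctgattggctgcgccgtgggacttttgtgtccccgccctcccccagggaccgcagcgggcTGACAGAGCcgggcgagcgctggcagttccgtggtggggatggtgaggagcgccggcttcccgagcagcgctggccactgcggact
The element of the hypoxia-inducible factors was searched as ACGTG. The CEBP-ATF element was TGATGNAA and the antioxidant element TGANNNNGC, where N is any base. FoxO factors were given the element GTAAACA. For the glucocorticoid receptor both its palindromic element and the short form AGAACA were searched. The Ddit4 window held 1 match, a hypoxia element whose first base stands at position -187 from the start, and 19.6% of all 32851 windows hold those letters. Sesn2 had 1 match, to the antioxidant element at position -36, which 41.3% of windows hold. The Sesn1 window at chr10:41810324-41810623 held the FoxO element on the reverse strand at position 22 (3.65% of windows), its second window matched none of the 6, and the Sesn3 window held the antioxidant element at position 40. The palindromic glucocorticoid element, found in 0.475% of windows, was in none of the 5 windows read. The GC content was 69% for Ddit4 and 64.7% for Sesn2, against a median of 52.7% over all windows. A match here is only a string of letters, and a missing match speaks only of these 300 bases.

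Ddit4 (ENSMUSG00000020108), which encodes the activator of the TSC complex, was the gene of the set that moved most. Normal livers held 7.40, 11.6, 24.6 and 9.19 CPM, and WT vehicle livers 10.9, 10.4, 8.89 and 5.91 CPM. After PRA the WT libraries held 255, 208, 178 and 203 CPM. In the knockout the vehicle libraries held 8.44, 17.8, 11 and 6.67 CPM and the PRA libraries 109, 166 and 124 CPM. All 7 PRA libraries thus lay far above all 12 others, and among the PRA libraries every WT value exceeded every knockout value. In WT livers Ddit4 rose 23.3-fold over vehicle, from 9.04 ± 2.26 to 211 ± 32.2 CPM (mean ± SD, n = 4 each), a log2 fold change of 4.54 ± 0.40 (SE, edgeR adjusted p = 1.05e-06), and 0.103% of the 15570 tested genes had a larger change in either direction. The rise in knockout livers was 12.1-fold, with vehicle at 11 ± 4.88 CPM (n = 4) and PRA at 133 ± 29.6 CPM (n = 3, log2 3.59 ± 0.39, edgeR adjusted p = 1.82e-05). Against normal livers the WT PRA level was 15.9-fold higher (log2 3.99 ± 0.39, edgeR adjusted p = 1.77e-06), and this contrast shares the WT PRA libraries with the one against vehicle.

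The knockout response of Ddit4 minus the WT response was -0.95 on the log2 scale, with a 95% interval of -2.05 to 0.15 (edgeR adjusted p = 0.652), so a difference between the genotypes was not called. Under PRA alone the knockout level was 0.629 times the WT level (log2 -0.67 ± 0.37, edgeR adjusted p = 0.41) although the CPM values did not overlap. When only the WT PRA and knockout PRA libraries entered the fit, the value was -0.70 and passed (edgeR adjusted p = 0.0229). Of 9 alternative settings this was the only 1 that changed the call. With any 1 library of these groups left out, the edgeR adjusted p was 0.356 to 0.681. Before PRA the genotypes overlapped, at 6.67 to 17.8 CPM in knockout and 5.91 to 10.9 CPM in WT vehicle livers (log2 0.28 ± 0.36, edgeR adjusted p = 0.996). WT vehicle minus normal livers differed by -0.55 (95% interval -1.30 to 0.20, edgeR adjusted p = 0.508). Ddit4 was also the gene of the 5 that varied most within groups, with an SD of 0.51 in log2 CPM, against a span of 4.57 between its lowest and highest group means.

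**Figure D1:**
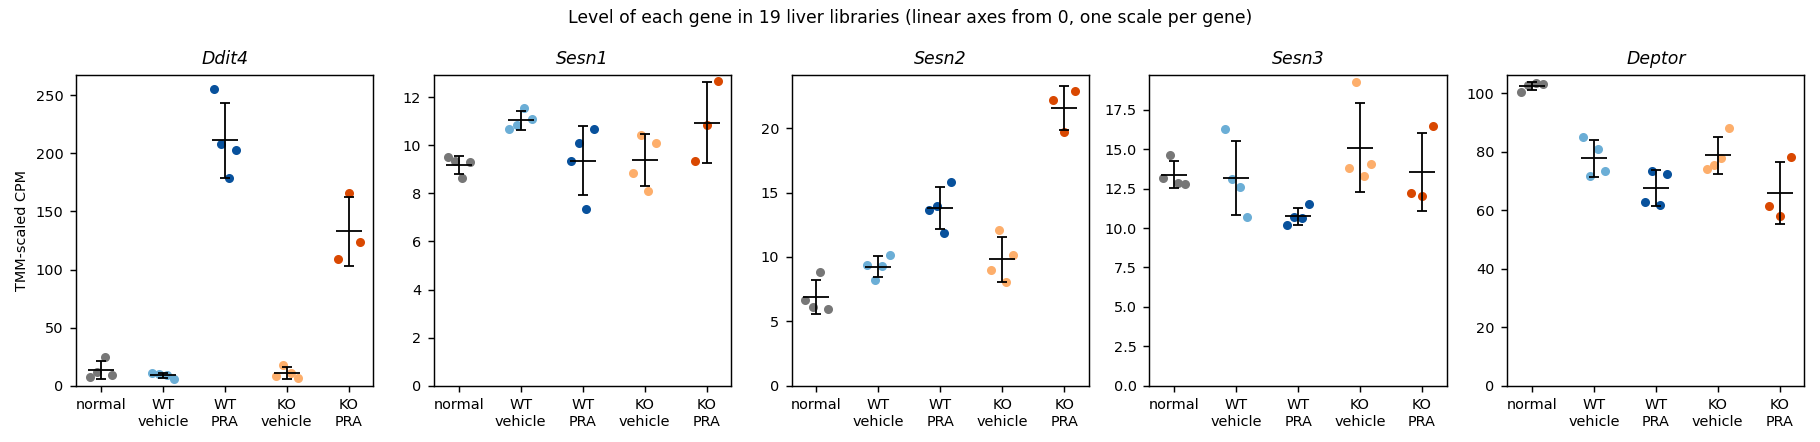
CPM of the 5 genes in each of the 19 libraries, 1 panel per gene, with points for libraries and bars for the group mean and SD, ordered as normal, then the vehicle and PRA groups of WT and then those of IL-6 knockout mice. Ddit4 after PRA stands above all normal and vehicle libraries, Sesn2 after PRA above the vehicle libraries of the same genotype, and Deptor is highest in the 4 normal libraries.

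Sesn2 (ENSMUSG00000028893), a stress-induced sestrin that binds GATOR2 and is released by leucine, rose under PRA in both genotypes, by much less than Ddit4. Normal livers held 6.65, 6.13, 8.81 and 5.96 CPM. WT livers held 9.37, 8.22, 9.28 and 10.1 CPM after vehicle and 13.7, 14, 11.9 and 15.8 CPM after PRA. Knockout vehicle livers were at 8.97, 12.1, 8.05 and 10.1 CPM and knockout PRA livers at 22.2, 19.7 and 22.9. In each genotype the PRA and vehicle values did not overlap, and the 3 knockout PRA libraries were the highest of the 19. The WT rise was 1.5-fold, with vehicle at 9.25 ± 0.788 and PRA at 13.8 ± 1.63 CPM (SD, n = 4 each, log2 0.58 ± 0.14, edgeR adjusted p = 0.00353). In the knockout it was 2.2-fold, with vehicle at 9.81 ± 1.75 CPM (n = 4) and PRA at 21.6 ± 1.70 CPM (n = 3, log2 1.14 ± 0.14, edgeR adjusted p = 1.51e-05). Scaling moved the WT value: with library totals in place of TMM factors it was 0.28 (edgeR adjusted p = 0.128), while the median of all tested genes moved from -0.03 to -0.33.

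Under PRA, Sesn2 was 1.56-fold higher in knockout than in WT livers (log2 0.64 ± 0.14, edgeR adjusted p = 0.0114). This call rested on the few knockout PRA libraries: it was 0.61 without replicate 1 (edgeR adjusted p = 0.068) and 0.60 without replicate 3 (edgeR adjusted p = 0.051). The difference between the 2 responses was 0.56, with a 95% interval of 0.15 to 0.96, and did not pass over all genes (edgeR adjusted p = 0.329). Under vehicle the knockout minus WT difference of Sesn2 was 0.09 ± 0.13 (edgeR adjusted p = 0.996). Ddit4 and Sesn2 were therefore ordered oppositely under PRA, Ddit4 with the higher mean in WT and Sesn2 with the higher mean in knockout livers, and of these 2 differences the one of Sesn2 passed. WT vehicle minus normal livers gave 0.42 (95% interval 0.14 to 0.70, edgeR adjusted p = 0.114), which passed without normal replicate 3 (0.56, edgeR adjusted p = 0.0358). Compared with normal livers, WT PRA livers held 2.00 times as much Sesn2 (log2 1.0 ± 0.14, edgeR adjusted p = 1.21e-05).

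Sesn1 (ENSMUSG00000038332) and Sesn3 (ENSMUSG00000032009) encode the other two sestrins, known as targets of p53 and of FoxO factors respectively. Sesn1 held 9.50, 9.33, 8.65 and 9.31 CPM in normal, 10.7, 10.8, 11.5 and 11.1 in WT vehicle and 9.35, 10.1, 7.36 and 10.7 in WT PRA libraries. Its knockout values were 8.85, 10.4, 8.11 and 10.1 CPM after vehicle and 9.33, 10.8 and 12.7 after PRA. The highest WT PRA library and the lowest WT vehicle library stood together at 10.7 CPM, and the knockout groups overlapped. No contrast of Sesn1 passed: the PRA value was -0.24 in WT (95% interval -0.48 to 0.01, edgeR adjusted p = 0.159) and 0.22 in knockout livers (-0.04 to 0.48, edgeR adjusted p = 0.245). The difference of those responses was 0.46 (0.10 to 0.81, edgeR adjusted p = 0.372). All 4 WT vehicle values of Sesn1 lay above every normal and every knockout vehicle value, and the log2 values were 0.26 for vehicle against normal (edgeR adjusted p = 0.276) and -0.23 for knockout against WT vehicle (edgeR adjusted p = 0.856). With library totals in place of TMM factors the WT value of Sesn1 was -0.53 and passed (edgeR adjusted p = 0.00309).

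Sesn3 was at 13.2, 14.6, 12.9 and 12.8 CPM in normal, 16.3, 13.1, 12.6 and 10.7 in WT vehicle and 10.2, 10.7, 10.6 and 11.5 in WT PRA libraries. Knockout livers held 13.8, 19.3, 13.3 and 14 CPM after vehicle and 12.2, 12.1 and 16.4 after PRA. Its lowest group was WT PRA, whose values lay below all normal and all knockout PRA values and overlapped WT vehicle. The Sesn3 value for PRA against vehicle was -0.30 in WT (95% interval -0.58 to -0.02, edgeR adjusted p = 0.123) and -0.16 in knockout livers (-0.46 to 0.15, edgeR adjusted p = 0.508), and neither passed. Knockout PRA livers exceeded WT PRA livers by 0.34 (0.03 to 0.64, edgeR adjusted p = 0.238), and in the WT vehicle group the difference from normal was -0.02 (-0.30 to 0.26, edgeR adjusted p = 0.972). WT PRA minus normal livers gave -0.31 (edgeR adjusted p = 0.0873). That last value passed when only those 2 groups were fitted (-0.31, edgeR adjusted p = 0.00966) and under limma-voom (-0.31, adjusted p = 0.0222).

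Deptor (ENSMUSG00000022419), the subunit that binds mTOR and inhibits it, passed the test in the contrasts with normal livers and not between PRA and vehicle. Normal livers held 100.3, 102.9, 103.6 and 103.2 CPM, WT vehicle livers 84.9, 71.7, 80.9 and 73.4, and WT PRA livers 62.7, 73.3, 61.7 and 72.3. Knockout livers were at 74.1, 75.5, 77.9 and 88.0 CPM after vehicle and at 61.5, 58.2 and 78.1 after PRA. Every normal library exceeded all 15 injected libraries, while PRA and vehicle values overlapped in both genotypes. Deptor fell 1.32-fold from normal to WT vehicle livers, from 102.5 ± 1.53 to 77.7 ± 6.24 CPM (SD, n = 4 each, log2 -0.40 ± 0.09, edgeR adjusted p = 0.0288). That call was a narrow one: it was lost without any 1 of the normal replicates 1 to 4 or without WT vehicle replicate 2 or 4, where the log2 value was -0.41 to -0.36 and the highest edgeR adjusted p was 0.101. From normal to WT PRA livers it fell 1.52-fold (log2 -0.60 ± 0.10, edgeR adjusted p = 6.73e-05), the same normal libraries serving both contrasts.

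For PRA against vehicle, Deptor differed by -0.20 in WT (95% interval -0.40 to -0.01, edgeR adjusted p = 0.132) and by -0.26 in knockout livers (-0.47 to -0.04, edgeR adjusted p = 0.0924). The knockout value passed without knockout PRA replicate 3 (-0.40, edgeR adjusted p = 0.0132), whose 78.1 CPM was the highest of that group, and under limma-voom (-0.34, adjusted p = 0.0159). The scaling also decided it: with upper quartile factors the values were -0.25 in WT (edgeR adjusted p = 0.049) and -0.33 in knockout livers (edgeR adjusted p = 0.0233). Knockout and WT livers differed in Deptor by -0.04 under PRA (edgeR adjusted p = 0.92) and by 0.02 under vehicle (edgeR adjusted p = 0.998). Of the 8874 bases of Deptor exon, 303 overlap exon of the gene Gm9920 on the opposite strand (GENCODE M21). The strand setting of the counting is not given in the sources used here, so reads within that overlap cannot be told apart.

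**Figure D2:**
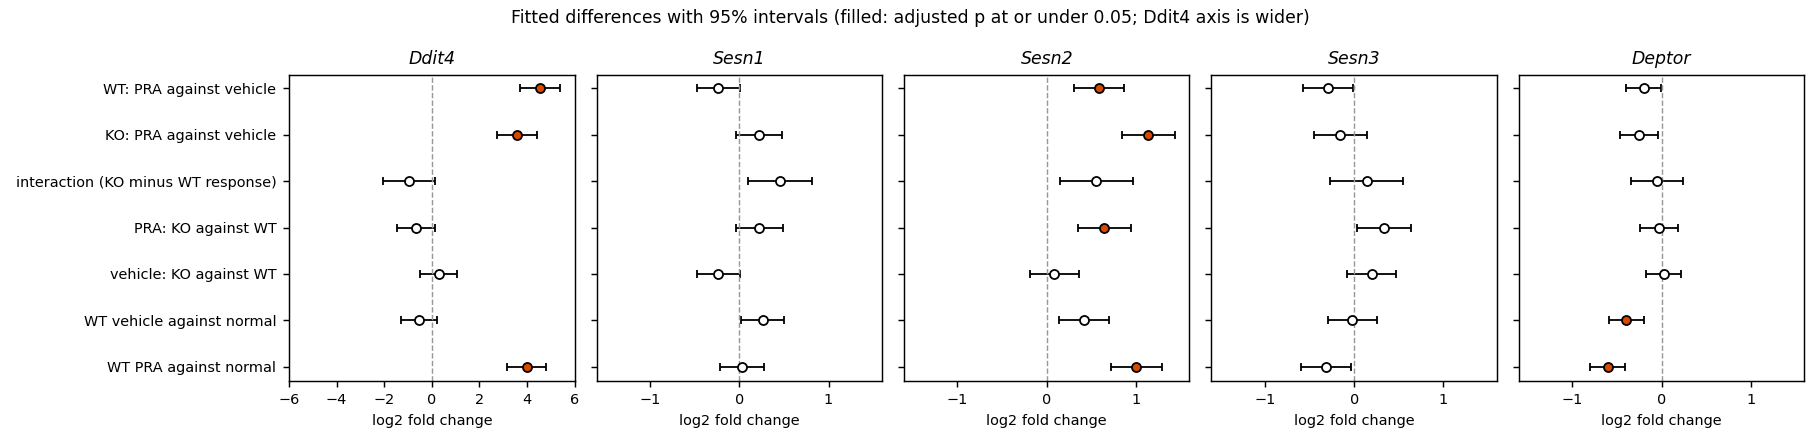
Log2 fold change of each of the 5 genes with its 95% interval in the 7 contrasts of the fit, 1 row each: the 2 PRA responses, their interaction, the 2 genotype differences and the 2 contrasts of WT groups with normal. Filled points passed an adjusted p of 0.05: Ddit4 and Sesn2 in both PRA contrasts, Sesn2 between the genotypes under PRA, Ddit4 and Sesn2 above 0 for WT PRA against normal, and Deptor below 0 in both contrasts with normal.

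Counted over the set, 2 of 5 genes rose in WT PRA against WT vehicle livers and the other 3 did not pass, where 22.1% of all tested genes were called (9.74% higher and 12.3% lower). In knockout livers 2 of 5 rose as well, against 16.3% of all genes called (7.96% higher and 8.38% lower). The interaction called 0 of 5 by edgeR, by DESeq2 and by limma-voom, and edgeR called 0.475% of all genes at the adjusted threshold. Unadjusted, 2 genes of the set (Sesn1 and Sesn2) had an edgeR p under 0.05. The share of all genes with such an unadjusted p was not counted. Knockout PRA against WT PRA called 1 of 5 and 3.80% of all genes. Knockout vehicle against WT vehicle called 0 of 5 by the same 3 tools, and edgeR called 0.0706% of all genes at the adjusted threshold. There 0 genes of the set had an unadjusted edgeR p under 0.05. Of the 2 contrasts with normal livers, that of WT vehicle called 1 of 5 (2.00% of all genes) and that of WT PRA 3 of 5 (28.4%, 13.5% higher and 14.9% lower). With 5 genes, a count of this kind says little about the set and the single genes carry the result.

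Levels of different genes are set side by side only per kilobase of exon, here as CPM per kb with exon lengths from GENCODE M21. In normal livers Deptor had the highest mean at 11.6 ± 0.173 CPM per kb (SD, n = 4), followed by Ddit4 at 7.52 ± 4.45. Sesn1 was at 2.31 ± 0.0942, Sesn2 at 1.98 ± 0.378 and Sesn3 at 0.876 ± 0.0563. Normal replicate 3 departed from this order, with Ddit4 at 14.02 above Deptor at 11.68, and Sesn2 at 2.535 above Sesn1 at 2.172. After PRA Ddit4 led by far, at 120 CPM per kb in WT and 75.7 in knockout livers, and Deptor stood at 7.61 and 7.43. Sesn2 reached 3.98 CPM per kb in WT and 6.21 in knockout PRA livers, above Sesn1 at 2.35 and 2.75. As a share of the summed CPM per kb of the 5 genes, Ddit4 went from 25.3% ± 4.9 in WT vehicle to 89% ± 1.51 in WT PRA libraries (SD, n = 4 each) and from 28.6% ± 8.5 (n = 4) to 81% ± 4.13 (n = 3) in knockout livers. Deptor made up 43.4% ± 2.3 of that sum in WT vehicle and 5.71% ± 0.856 in WT PRA livers, while its own level was 8.76 and 7.61 CPM per kb, a difference that did not pass. A share of the sum moves with the other genes in it, and these are levels of RNA, not of protein or kinase activity.

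**Figure D3:**
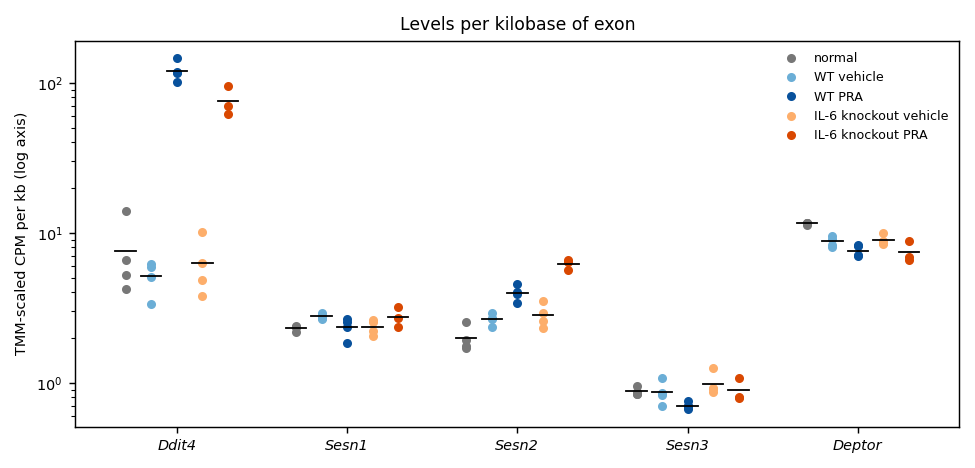
CPM per kb of exon of the 5 genes on a log axis, with a point for each library, coloured by group, and a black line at each group mean. Deptor has the highest mean in normal and vehicle livers, and Ddit4, at 120 and 75.7 CPM per kb, in the PRA livers of WT and knockout mice.

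Among 10109 genes with a mean of at least 2 CPM, those whose pattern over the 19 libraries was most like that of Ddit4, by the root mean square difference of centred log2 CPM, were Rasd1 (0.57), Igfbp1 (0.70), Thbd (0.77) and Gadd45b (0.78), where the median over all genes was 2.02. Rasd1, a Ras-related gene induced by dexamethasone, was at 0.541 ± 0.199 CPM in WT vehicle and 11.7 ± 1.95 in WT PRA livers (SD, n = 4 each). Igfbp1, which encodes a hepatic binding protein of insulin-like growth factors, was at 49.3 ± 22.5 and 936 ± 217 CPM. Thbd encodes thrombomodulin, an endothelial anticoagulant receptor, and Gadd45b a stress response protein. Their fitted PRA ratios to vehicle in WT livers were 7.05 and 10, and in knockout livers the ratios of the 4 genes were 22.2, 11.2, 10.9 and 6.36 in the same order. These genes were picked for their likeness to Ddit4 in the same libraries, so their values describe the pattern and carry no test.

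For Sesn2 the nearest genes were Zfand5 (0.19), Mpzl2 (0.21), Pcf11 (0.21) and Rel (0.22), with a median over all genes of 0.59. Zfand5, which encodes a zinc finger protein that binds ubiquitin, was at 27.1 ± 2.43 CPM in WT vehicle and 40.8 ± 6.45 in WT PRA livers (n = 4 each), and at 29.2 ± 1.49 (n = 4) and 64 ± 7.31 CPM (n = 3) in knockout vehicle and PRA livers. Pcf11, a factor of transcript 3' end processing, had means of 13.2 and 18.7 CPM in WT and 12.9 and 23.9 CPM in knockout livers, in the same order. Mpzl2 had 33.6 and 52.3, then 31.9 and 71.5 CPM, and Rel, an NF-kB subunit, 2.62 and 4.21, then 2.36 and 4.92 CPM. They too were chosen for their likeness, here to Sesn2, and are given with no test. The measure of likeness describes these libraries, which share the 5 groups, and no like-pattern genes were sought for Sesn1, Sesn3 and Deptor, whose group means spanned less than 1 on the log2 scale.

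**Figure D4:**
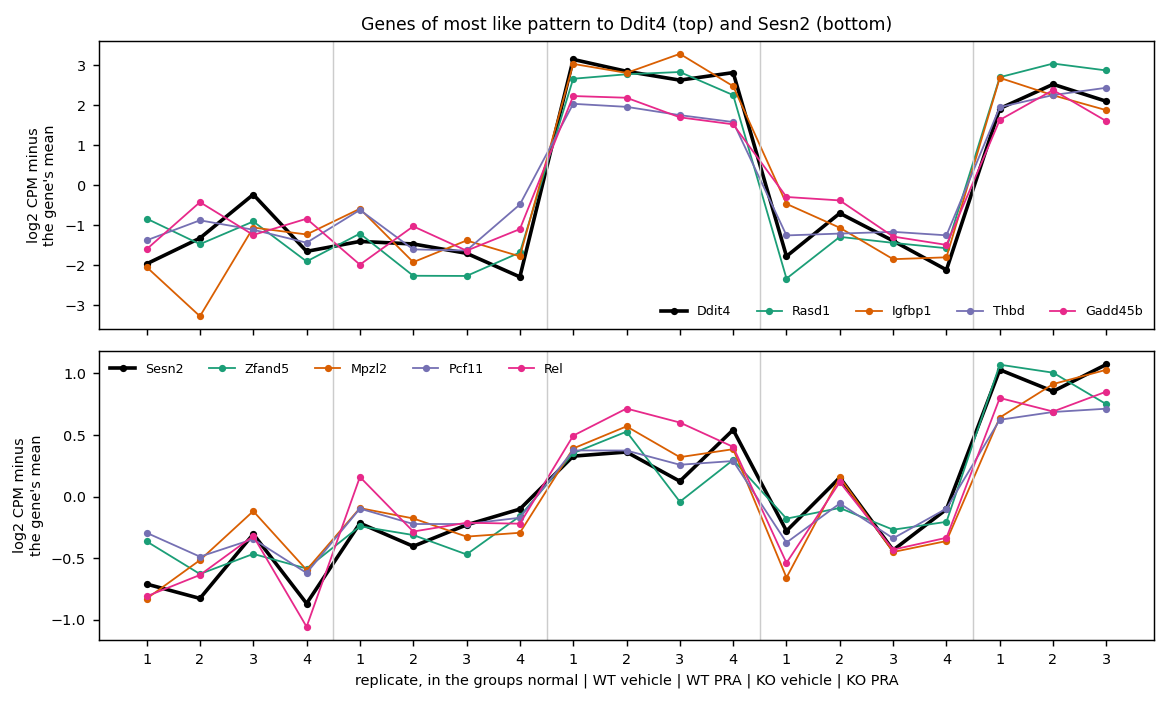
Log2 CPM of Ddit4 and Sesn2 and of the 4 genes with the most similar pattern to each, centred on each gene's mean, over the 19 libraries. The curves of the Ddit4 group step up in the 7 PRA libraries, and those of the Sesn2 group have their highest group mean in the 3 knockout PRA libraries.

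The transcripts whose products the 5 genes act on were read next, and their counts stand beside 22.1% of all tested genes called in WT and 16.3% in knockout livers. Among 10 genes for subunits and partners of the mTOR complexes, Prr5, a partner of the complex mTORC2, fell in WT (log2 -0.92, edgeR adjusted p = 0.000357) and in knockout livers (-0.88, edgeR adjusted p = 0.00176), and 9 did not pass in either. Mtor stood at 34.6 ± 3.85 CPM in WT vehicle and 29.3 ± 2.2 in WT PRA livers (edgeR adjusted p = 0.0819), and Rptor, which recruits mTORC1 substrates, at 25.8 ± 3.18 and 24.2 ± 1.67 (edgeR adjusted p = 0.557). The median log2 fold change of the 10 was -0.22 in WT and -0.10 in knockout livers, beside -0.03 and -0.00 over all tested genes. Of 27 tested genes of amino acid sensing (28 listed), 2 rose and 3 fell in WT livers and 1 rose in knockout livers, with a median of 0.02 in both. Rraga, a Rag GTPase, rose by 0.37 in WT livers (edgeR adjusted p = 0.00387), and Lamtor3, of the Ragulator scaffold, by 0.29 in WT and 0.44 in knockout livers (edgeR adjusted p = 0.0305 and 0.0043). With library totals in place of TMM factors, Lamtor3 was at -0.01 and Rraga at 0.08 in WT livers (edgeR adjusted p = 0.931 and 0.462). Called there were 8 of the 10 mTOR complex genes, 14 of the 27 sensing genes and 12 of the 19 genes around TSC and Rheb. In knockout livers 3, 4 and 6 were called. Of all 15570 tested genes, 7034 were called under that scaling in WT and 3817 in knockout livers. Fnip2 and Depdc5, a folliculin partner and a GATOR1 subunit, fell in WT livers by 0.57 and 0.36 (edgeR adjusted p = 0.0277 and 0.0415). Castor1, the arginine sensor, was at 1.92 ± 0.717 CPM in WT vehicle and 1.53 ± 0.16 in WT PRA livers (edgeR adjusted p = 0.366).

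Around TSC and Rheb, 3 of 19 genes rose and 2 fell in WT livers (median -0.04), and 2 rose and 1 fell in knockout livers (median 0.05). Tsc2, the partner through which Ddit4 works, was at 38.2 ± 3.06 CPM in WT vehicle and 38.2 ± 2.28 in WT PRA livers (log2 -0.00 ± 0.08, edgeR adjusted p = 0.989), and Tsc1 at 14.2 ± 1.59 and 12.1 ± 1.45 (edgeR adjusted p = 0.235). Rheb itself rose by 0.34 in WT livers (edgeR adjusted p = 0.00567) and was at 0.21 in knockout livers (edgeR adjusted p = 0.114), and with library totals the WT value was 0.04 (edgeR adjusted p = 0.68). Pik3r1, the regulatory subunit of PI3-kinase, rose 1.85-fold and 1.88-fold (edgeR adjusted p = 6.65e-06 and 1.82e-05). Rps6ka1, a kinase of the RSK family that inhibits TSC2, fell by 1.12 in WT and 0.67 in knockout livers (edgeR adjusted p = 8.55e-06 and 0.00428). Prkab1, an AMPK subunit, rose by 0.48 in WT livers (edgeR adjusted p = 0.0047, and 0.139 with library totals, at 0.19), and Gsk3b, a kinase that acts on TSC2, by 0.52 in knockout livers (edgeR adjusted p = 0.000533). Ddit4l, the paralog of Ddit4, did not follow it: its means were 1.24 CPM in normal, 0.595 in WT vehicle and 0.422 in WT PRA livers, with a log2 value of -0.49 for PRA against vehicle (edgeR adjusted p = 0.442) and -1.56 for PRA against normal livers (edgeR adjusted p = 0.00676).

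Among 19 substrates and effectors of mTORC1, 4 rose and 2 fell in each genotype, with medians of 0.18 in WT and 0.13 in knockout livers. Eif4ebp3, a repressor of cap-dependent translation, rose 2.13-fold in WT and 2.01-fold in knockout livers (edgeR adjusted p = 0.0172 and 0.0428), and Eif4ebp1, its relative, rose 1.53-fold in WT livers (edgeR adjusted p = 0.00218). Eef2k, the kinase that slows elongation, fell by 1.02 and 1.05 on the log2 scale (edgeR adjusted p = 0.0017 and 0.00427). Lpin1, a lipid phosphatase and mTORC1 target, rose 1.74-fold in WT and 4.67-fold in knockout livers (edgeR adjusted p = 0.0417 and 6.11e-05), and its PRA levels were 539 ± 53.3 CPM in WT and 539 ± 140 in knockout livers. Srebf1, a regulator of lipid synthesis, fell by 0.93 in WT livers (edgeR adjusted p = 0.00251) and was at -0.04 in knockout livers (edgeR adjusted p = 0.934), a difference that did not pass (0.89, edgeR adjusted p = 0.28). Ulk1, the autophagy kinase, rose by 0.74 in knockout livers (edgeR adjusted p = 0.00848) and was at 0.42 in WT livers (edgeR adjusted p = 0.0853). Pdcd4, an inhibitor of translation that is degraded after mTORC1 signalling, was the only gene of the 10 lists whose response differed between the genotypes by edgeR. That contrast called 0.475% of all tested genes, and 1 call among 10 lists does not single out Pdcd4. Its level was 107 ± 12.6 and 104 ± 9.90 CPM in WT vehicle and PRA livers, and 118 ± 5.73 and 73.1 ± 3.6 CPM in knockout vehicle and PRA livers, with a difference of responses of -0.65 ± 0.13 (edgeR adjusted p = 0.0251).

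**Figure D5:**
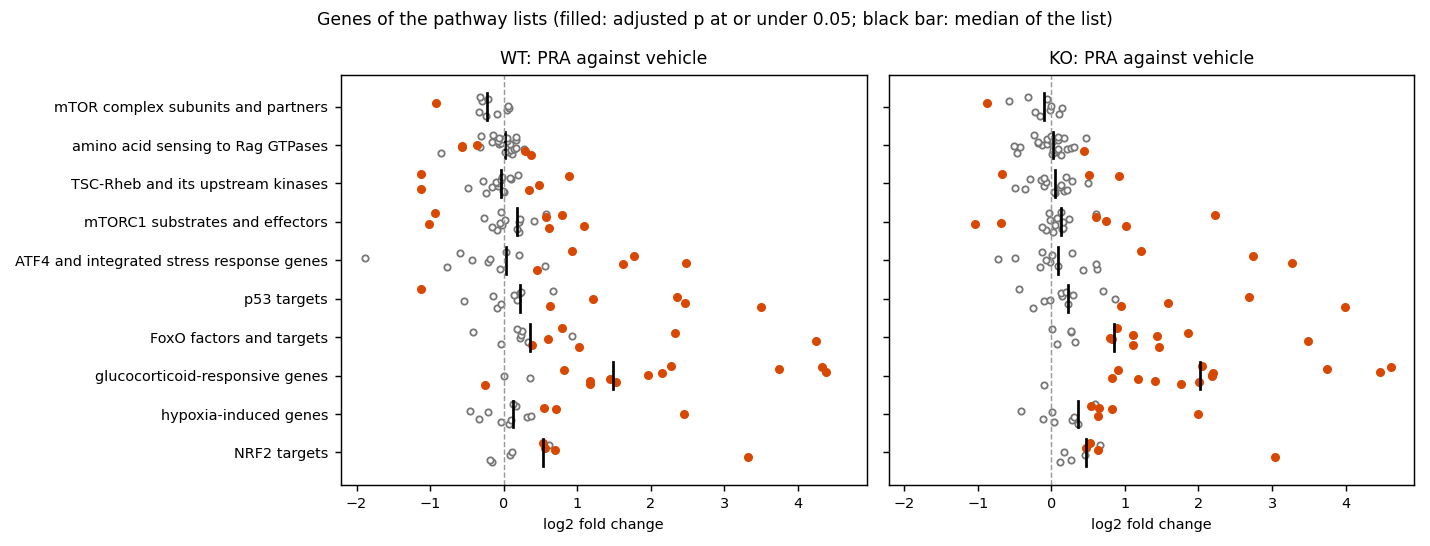
Log2 fold changes of the tested genes of the 10 lists for PRA against vehicle, in WT and in knockout livers, with filled points for genes past an adjusted p of 0.05 and a black bar at each list's median. The glucocorticoid-responsive list has the highest median, 1.49 in WT and 2.03 in knockout livers, and the list of mTOR complex subunits a median of -0.22 and -0.10.

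Ddit4 and the sestrins are each known to be induced by several stress factors, so the other genes of those factors were read in the same contrasts, where 9.74% of all genes rose and 12.3% fell in WT and 7.96% rose and 8.38% fell in knockout livers. Of 14 genes of the glucocorticoid-responsive list, which holds the receptor gene Nr3c1, 11 rose and 1 fell in WT livers (median 1.49). In knockout livers 13 rose (median 2.03). The metallothioneins Mt2 and Mt1 rose 20.2-fold and 13.4-fold in WT (edgeR adjusted p = 4.92e-06 and 7.31e-06) and 24.4-fold and 13.5-fold in knockout livers (edgeR adjusted p = 7.63e-06 and 1.73e-05). Both already stood higher after vehicle than in normal livers. Mt2 was at 3.83 ± 0.372 CPM in normal and 96.3 ± 44.9 in WT vehicle livers, and Mt1 at 21.5 ± 2.47 and 226 ± 109. Nr3c1, the glucocorticoid receptor itself, fell by 0.25 in WT livers (edgeR adjusted p = 0.0221) and was at -0.09 in knockout livers (edgeR adjusted p = 0.484). Of 14 FoxO factors and targets, 6 rose in WT (median 0.36) and 9 in knockout livers (median 0.86). Foxo1 rose 2.04-fold and 2.76-fold (edgeR adjusted p = 0.000104 and 7.75e-06), Bcl6, a transcriptional repressor, 5-fold and 3.63-fold (0.00279 and 0.0188), and Foxo3 1.31-fold and 2.16-fold (0.023 and 4.79e-06), while Sesn3, a FoxO target, did not pass in either genotype. Bcl6 had fallen from normal to WT vehicle livers (log2 -2.69, edgeR adjusted p = 0.0104), and its WT PRA level of 41.3 ± 4.94 CPM stood beside 53 ± 39.2 CPM in normal livers (log2 -0.36, edgeR adjusted p = 0.594). Under PRA Foxo3 was higher in knockout than in WT livers (log2 0.48, edgeR adjusted p = 0.0342).

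Of 15 genes of the p53 list (Trp53 itself and targets), 5 rose and 1 fell in WT (median 0.22) and 4 rose in knockout livers (median 0.23). Cdkn1a, the cell cycle inhibitor p21, rose from 14.4 ± 9.32 to 164 ± 26.3 CPM in WT livers (edgeR adjusted p = 0.00192) and from 17.2 ± 17.6 to 274 ± 68.4 CPM in knockout livers (edgeR adjusted p = 0.0015). Btg2, an antiproliferative gene, rose 5.52-fold and 3.01-fold, and Trp53inp1, an autophagy and stress gene, 5.11-fold and 6.45-fold (edgeR adjusted p = 1.37e-07, 4.96e-05, 1.02e-05 and 8.02e-06). Plk2, a polo-like kinase, was lower after PRA in WT livers, with vehicle at 8.69 ± 1.47 and PRA at 3.98 ± 0.485 CPM (edgeR adjusted p = 1.43e-05). In knockout livers it was at -0.43 (edgeR adjusted p = 0.0615). There it was called in 5 of 9 alternative settings, library totals and upper quartile factors among them, and in 0 of 7 fits with 1 library left out. Trp53 was at 23.5 ± 3.62 CPM in WT vehicle and 22 ± 2.2 in WT PRA livers (edgeR adjusted p = 0.599). Of 15 tested genes of the ATF4 response (16 listed), 5 rose in WT and 3 in knockout livers, with medians of 0.03 and 0.10. Atf4 rose 1.37-fold in WT livers (edgeR adjusted p = 0.0421) and was at 0.43 in knockout livers (edgeR adjusted p = 0.0903). Gdf15, a stress hormone, rose 3.41-fold and 6.68-fold, Atf3, a stress transcription factor, 5.59-fold and 9.62-fold (edgeR adjusted p = 0.00759, 0.000705, 0.00308 and 0.000821), and Chac1, which degrades glutathione, rose 3.09-fold in WT livers (edgeR adjusted p = 0.0225). Ppp1r15a, which restores translation after stress, rose 1.9-fold and 2.34-fold (edgeR adjusted p = 3.18e-06 and 4.7e-07).

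Of 13 genes of the hypoxia list, which holds Hif1a itself, 3 rose in WT (median 0.12) and 5 in knockout livers (median 0.36). Pfkfb3, a regulator of glycolysis, rose 5.49-fold and 3.97-fold (edgeR adjusted p = 8.03e-05 and 0.00125), yet its WT PRA level of 40.5 ± 5.84 CPM was near the 35 ± 4.86 CPM of normal livers (log2 0.21, edgeR adjusted p = 0.665). Ndrg1, a stress-responsive gene, rose 1.46-fold and 1.57-fold (edgeR adjusted p = 0.0477 and 0.0345), and Kdm3a, a histone demethylase, 1.45-fold in knockout livers (edgeR adjusted p = 0.00768). Hif1a stood at 14.3 ± 3.70 CPM in WT vehicle and 15 ± 0.409 in WT PRA livers (edgeR adjusted p = 0.772). Of 9 tested genes of the NRF2 list (10 listed, Nfe2l2 itself among them), 4 rose in each genotype, with medians of 0.54 and 0.46. Hmox1, the haem-degrading enzyme, rose 9.98-fold and 8.23-fold and Srxn1, a sulfiredoxin, 1.63-fold and 1.56-fold (edgeR adjusted p = 3.07e-06, 1.7e-05, 0.00335 and 0.0141). Txnrd1, a thioredoxin reductase, rose 1.48-fold and 1.38-fold and Sqstm1, the autophagy receptor p62, 1.45-fold and 1.44-fold (edgeR adjusted p = 0.00233, 0.0205, 0.000385 and 0.0013). Nfe2l2, encoding NRF2, was at -0.16 in WT livers (edgeR adjusted p = 0.259). The lists were chosen with earlier results in view, so their counts describe these genes and do not single out any list.

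Several of these calls were near the threshold. When each library was left out in turn, the WT call was lost in 7 of 8 fits for Lpin1 and Ndrg1, 6 for Lamtor3, 5 for Fnip2 and Depdc5, 3 for Foxo3, Chac1 and Nr3c1 and 1 for Eif4ebp3. The knockout call was lost in 5 of 7 fits for Eif4ebp3 and Ndrg1, 3 for Bcl6 and Txnrd1 and 1 for Ulk1 and Srxn1, the call of Foxo3 between genotypes in 5 of 7, and the interaction of Pdcd4 in 9 of 15. Their highest edgeR adjusted p was 0.186, for Depdc5. The WT call of Atf4 was also near the threshold and was not among the calls refitted. With library totals in place of TMM factors the WT calls of Rheb, Rraga, Lamtor3, Prkab1, Lpin1, Foxo3, Ndrg1 and Txnrd1 were lost, as were the knockout calls of Lamtor3, Eif4ebp3, Ulk1, Srxn1, Ndrg1, Txnrd1 and Kdm3a and the interaction of Pdcd4. The WT call of Lamtor3 and the knockout call of Eif4ebp3 were also lost with upper quartile factors, as were both calls of Ndrg1. Over all 9 alternative settings, the WT call was lost in 4 for Depdc5, 2 for Nr3c1 and 1 for Fnip2. The knockout call of Cdkn1a and the call of Foxo3 between genotypes were each lost in 1. Neither library totals nor upper quartile factors gave these losses. For Eif4ebp3 and Ndrg1 in knockout livers the losses were 5 and 4 of 9, and for Pdcd4 in the interaction 3. With library totals 8 of the ATF4 list were called in WT livers in place of 5, and 1 of the hypoxia list and 2 of the NRF2 list in knockout livers in place of 5 and 4. Over all tested genes the calls then numbered 7034 in WT and 3817 in knockout livers, in place of 3437 and 2544.

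Some cell markers were called for PRA against vehicle in the same libraries. Of all tested genes, 9.74% rose and 12.3% fell in WT livers in that comparison. In knockout livers 7.96% rose and 8.38% fell. Bulk counts cannot tell fewer cells of a type from less RNA per cell. The summed CPM of 6 neutrophil markers was 1.40 to 3.12 in WT vehicle and 11.2 to 12.8 in WT PRA livers, where 6 of 6 rose, and 4.45 to 6.00 and 4.14 to 13.4 in knockout vehicle and PRA livers, where 2 of 6 rose. Of 6 sinusoidal endothelial markers, 1 rose and 4 fell in WT and 1 rose and 3 fell in knockout livers, and their sum was 161 to 227 in WT vehicle and 144 to 174 in WT PRA livers. Of 6 stellate cell markers, 3 fell in WT and 2 in knockout livers, and of 4 B cell markers, 2 and 3 fell, with medians of -1.39 and -2.37 and sums of 5.34 to 12.4 CPM in knockout vehicle and 2.41 to 6.45 in knockout PRA livers. Among 3 tested erythroid markers 2 rose in WT livers (median 1.24, sums of 137 to 148 and 159 to 203 CPM) and none in knockout livers, of 5 cholangiocyte markers 1 rose in WT livers, and of 6 hepatocyte markers 1 rose in knockout livers. Kupffer cell markers (6 tested), T cell markers (3 of 4 tested) and the adipocyte list (1 of 4 tested) had no call in either contrast. The part of these shifts in the values of Ddit4, Sesn2 and Deptor was not tested. No batch is named in the labels or the table headers.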

How the data were processed

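Raw gene-level counts were deposited by the authors in 1 table of the 19 libraries and again in a file for each library (0 rows differed). Per the submitters' processing notes, HISAT2 2.2.1, SAMtools 1.13, HTSeq 0.11.3 and build GRCm39 were used. Neither the annotation release nor the strand setting is given in the sources used here. In the per-library files 66.95% to 71.71% of reads were counted in genes, and their summary lines stayed out of library sizes and tests. Of 55416 rows, 52083 were matched to a symbol.

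The tests were run in edgeR 4.0.16 (R 4.3.3). Genes kept by filterByExpr on group (15570) were scaled by TMM and fitted in 1 robust quasi-likelihood model, 1 coefficient for each group, over all 19 libraries. Each of 7 contrasts was adjusted by Benjamini-Hochberg, with a threshold of 0.05. CPM use TMM-scaled totals, and log2 CPM for likeness used a prior count of 0.5. Replicates differed by a chi-square of at least 20.93 per degree of freedom, so no library looked like a repeat. Procedures were tested on simulated counts.

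The 5 genes, the 10 pathway lists and the 11 marker lists were chosen with earlier results of these data known. Beside the 5, the text names up to 3 genes per list and direction (called, mean CPM not under 2, and groups that do not overlap) in the 2 contrasts of PRA against vehicle, a set named whatever its values (such as Mtor, Tsc2 and Atf4), and the 4 genes of most similar pattern for a gene whose group means span at least 1 on the log2 scale. List genes outside this rule are counted and not named. Sequences are from RefSeq (GRCm38.p6), whose build differs from that of the counts, so no coordinate of the counts is given. Alternatives were RLE, upper quartile and no scaling factors, no low-count filter or 1 CPM in 3 libraries, DESeq2 1.42.0, limma-voom (limma 3.58.1), a replicate block, fits to the compared groups alone, and leaving out each library.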

Additional observations from a re-analysis of the deposited data

Results flagged for a closer look

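In each group of 4, the highest or lowest library was compared with the gap to its nearest neighbour. Over 244 such groups, chance alone marks about 1 in 20. Among the 5 genes, Sesn3 in knockout vehicle replicate 2 stood at 19.3 CPM, where the other 3 libraries held 13.3 to 14. Among the other genes named, Rel in WT vehicle replicate 1 was at 3.19 CPM, Prkab1 in WT PRA replicate 3 at 54.1 CPM, Rps6ka1 in normal replicate 4 at 16.7 CPM and Srebf1 in WT vehicle replicate 4 at 220 CPM. Pdcd4 in WT vehicle replicate 4 was at 88.7 CPM, Atf3 in normal replicate 1 at 4.2 CPM, Btg2 in WT PRA replicate 1 at 44.3 CPM and Hmox1 in knockout vehicle replicate 3 at 36.1 CPM. Kdm3a was marked in 3 groups, at 7.57 CPM in normal replicate 2, 11.6 CPM in WT vehicle replicate 1 and 10.8 CPM in knockout vehicle replicate 2.

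Pdcd4 was also marked because its response differed between the genotypes, by -0.65 on the log2 scale (edgeR adjusted p = 0.0251). That contrast called 0.475% of all tested genes, and the call of Pdcd4 was lost in 9 of 15 fits with 1 library left out.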

How the results depend on the processing

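Ddit4 and Sesn2 kept direction and call for PRA against vehicle in knockout livers and for WT PRA against normal livers under every alternative and every left-out library, as did Ddit4 in WT livers. With library totals in place of TMM factors the median log2 value of all genes was -0.33 for PRA against vehicle in WT and -0.21 in knockout livers, -0.40 against normal and 0.12 for the interaction. Values there in WT were -0.53 for Sesn1, -0.60 for Sesn3 and -0.51 for Deptor, which were called along with Ddit4 (4 of 5 genes). Sesn2, at 0.28, was not called there. Deptor was at -0.46 in knockout livers, and against normal Sesn1 was at -0.35 and Sesn3 at -0.69 (5 called). Deptor changed sign in the interaction (0.046), under PRA between genotypes (0.042) and under vehicle (-0.004), and Lamtor3 in WT livers (-0.01). Genes called then numbered 7034, 3817, 44 (interaction), 7 (vehicle, knockout against WT) and 8804 (PRA against normal).

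With upper quartile factors Deptor was at -0.25 in WT and -0.33 in knockout livers, and Sesn1 at -0.026 and Sesn3 at -0.37 against normal. The share of calls that were higher was 34%, 35.3% and 38.6% in WT, in knockout livers and for WT PRA against normal, beside 44.1%, 48.7% and 47.5% with TMM and 9.38%, 15.4% and 9.21% with library totals. By limma-voom Deptor was at -0.34 in knockout livers and Sesn3 at -0.31 against normal, with 898, 23 and 701 genes called between genotypes under PRA, under vehicle and for vehicle against normal. DESeq2 called 176 for the interaction and 927, 56 and 655 in those contrasts. Fitting only the compared groups gave -0.70 for Ddit4 under PRA between genotypes, with 2 of 5 called. Over the 9 alternative settings, that contrast called 496 to 927 of all genes. The same fits gave -0.31 for Sesn3 against normal, and 7 and 154 genes for the vehicle contrasts between genotypes and with normal. The cause of these shifts was not tested.

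Leaving out 1 library gave ranges of 1671 to 2499 genes called in knockout livers, 37 to 95 for the interaction, 314 to 489 and 2 to 15 between genotypes under PRA and vehicle, and 128 to 299 for vehicle against normal, and 0 to 1 of the 5 genes in the PRA genotype contrast and in vehicle against normal. Deptor ranged from -0.40 to -0.18 in knockout livers, -0.19 to 0.023 in the interaction, -0.17 to 0.043 and -0.037 to 0.062 between genotypes under PRA and vehicle, and -0.45 to -0.36 for vehicle against normal. Sesn2 ranged from 0.57 to 0.72 and -0.033 to 0.17 between genotypes under PRA and vehicle, and 0.36 to 0.56 for vehicle against normal, where it passed without normal replicate 3 (adjusted p = 0.0358). Sesn3 ranged from -0.02 to 0.28 in the interaction and -0.15 to 0.068 for vehicle against normal, Ddit4 from -0.056 to 0.46 between genotypes under vehicle, and Sesn1 from -0.047 to 0.12 for WT PRA against normal.

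Same-numbered libraries of different groups showed no strong shared deviation (36 pairs, correlations from -0.21 to 0.17). Pairs with different numbers gave -0.20 to 0.24. Correlations this weak cannot tell whether the numbers pair samples. A replicate block changed no call of the 5 genes: Ddit4 in WT livers was 4.60 and Sesn2 under PRA between genotypes 0.66 (adjusted p = 0.0259). Of 19 libraries 7 correlated best with their own number. Each of the 5 genes had at least 260 counts in a library.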
